A study of Mus musculus with 6 samples.

Results

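Cd4 and 9 genes of the T cell receptor complex and its partners (Cd3d, Cd3e, Cd3g, Cd247, Cd8a, Cd8b1, Cd5, Cd28 and Lck) were examined in bulk RNA from CD11b+ cells of the mouse spleen, 10 of the 55335 genes in the count table. All 10 passed the filter on low counts. They were chosen by their symbols after earlier results of the same libraries, in which Cd4 was lower after denervation and stood above Cd3d in level. The differences between the groups for these genes are therefore a description. Where it is said how many passed the test over all genes, the share of all genes stands beside it and the count supports nothing. The question was how far Cd4 exceeds, in level and in its pattern over the libraries, what the CD3 genes would bring. Dendritic cells of the DC2 type in the spleen carry Cd4 too.

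The libraries came from wild-type mice with myocardial infarction and renal denervation, the ablation of the nerves to the kidney (MI+RDN, 3 libraries), or with myocardial infarction alone (MI, 3 libraries). Infarction was thus common to both groups, no sham-operated or uninjured mice were analysed here, and the labels give no strain, age or time after surgery. The design text calls the replicates biological and does not say whether any was a pool of mice. Library totals ran from 24634555 to 28013900 counts in MI+RDN and from 21663440 to 24677865 in MI. Itgam, which encodes the CD11b of the sort, stood at 1670, 1640 and 1490 CPM (counts scaled to a common library size with TMM factors) in MI+RDN, against 1090, 1300 and 1010 in MI. In bulk RNA, fewer cells of a type and less RNA per cell cannot be told apart.

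The T cell receptor binds peptide on MHC molecules and has no signalling tail of its own. It signals through the CD3 delta, epsilon and gamma chains (Cd3d, Cd3e, Cd3g) and the zeta chain (Cd247), which the kinase Lck phosphorylates. CD4 and CD8 are coreceptors that hold Lck and bind MHC class II and class I. Several of these genes are also carried outside T cells. In the mouse spleen, DC2 and plasmacytoid dendritic cells carry Cd4, DC1 carry Cd8a without Cd8b1, NK cells carry Cd247 and Lck, and B-1 cells carry Cd5. Of these, most T cells, DC1 and plasmacytoid dendritic cells have little or no CD11b, so a CD11b+ sort is meant to leave them out and their RNA would be carry-over.

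Cd3d, Cd3e and Cd3g lie together on chromosome 9, and the pattern of these 3 genes is the yardstick for Cd4 below, so their promoters are shown. RefSeq held promoter windows for 7 of the 10 genes in build GRCm38.p6, from 250 bases before to 50 after the start. Those of Cd4, Cd8b1 and Cd28 are not shown. Cd3d (chr9:44981536-44981835, plus strand) and Cd3g (chr9:44980382-44980681, minus strand) are divergent genes, with starts 1355 bases apart. Cd3e (chr9:45009562-45009861, minus strand) starts 27825 bases from Cd3d. Capitals mark GGAA on either strand, the core that ETS family factors bind.
Cd3d: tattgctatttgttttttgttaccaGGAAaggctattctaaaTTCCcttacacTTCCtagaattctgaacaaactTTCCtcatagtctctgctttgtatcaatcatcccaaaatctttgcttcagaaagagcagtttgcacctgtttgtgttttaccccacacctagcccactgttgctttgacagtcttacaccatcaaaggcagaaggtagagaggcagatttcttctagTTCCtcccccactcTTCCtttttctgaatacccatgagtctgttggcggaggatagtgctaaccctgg
Cd3e: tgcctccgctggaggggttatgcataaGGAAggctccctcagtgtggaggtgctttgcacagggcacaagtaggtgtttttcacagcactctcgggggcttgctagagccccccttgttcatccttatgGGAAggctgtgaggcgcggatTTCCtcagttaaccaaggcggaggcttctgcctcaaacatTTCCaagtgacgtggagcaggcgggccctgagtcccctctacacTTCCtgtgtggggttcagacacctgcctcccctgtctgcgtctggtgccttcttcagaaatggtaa
Cd3g: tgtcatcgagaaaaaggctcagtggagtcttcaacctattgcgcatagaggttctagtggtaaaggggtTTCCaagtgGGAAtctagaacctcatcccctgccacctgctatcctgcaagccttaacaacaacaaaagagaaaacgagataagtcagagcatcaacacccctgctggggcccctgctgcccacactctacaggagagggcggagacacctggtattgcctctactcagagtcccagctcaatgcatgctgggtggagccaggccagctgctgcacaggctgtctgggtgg
GGAA occurred 6 times in the Cd3d window, 5 times in that of Cd3e and 2 times in that of Cd3g. Of 32851 windows of 300 bases, 96% held it at least once and 28.6% at least 5 times. The E-box letters CANNTG, which can share an end base with it, occurred 1, 2 and 4 times in the same order, and 72.3% of windows held them.

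Cd4, the coreceptor for MHC class II, was the member with the highest count in every MI library. It stood at 11.4, 11.2 and 9.71 CPM in MI+RDN libraries 1 to 3, against 34.9, 31.6 and 47.7 CPM in MI libraries 1 to 3. Every MI+RDN library was below every MI library, and the MI+RDN values lay close together. The fitted level was 3.53-fold lower in MI+RDN (log2 fold change -1.82, SE 0.172). Cd4 overlaps no annotated gene in GENCODE M21. Its nearest neighbour, Gpr162, lies 708 bases beyond its 3' end on the same strand and stood at 0.808, 2.01 and 1.03 CPM in MI+RDN, against 4.69, 2.80 and 4.63 in MI. The Gpr162 groups did not overlap either, and the gene missed the threshold (adjusted p = 0.0804 by edgeR). Whether reads run on from Cd4 into Gpr162 was not tested. The other neighbours P3h3, Lag3 and Ptms had log2 fold changes of -0.50, -0.51 and -0.44 and did not pass either.

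The 3 CD3 chains, which bring the receptor of conventional T cells to the surface, stood far below Cd4 in CPM. Cd3d had 1.42, 1.57 and 1.98 CPM in MI+RDN, against 5.28, 4.69 and 3.81 in MI. Cd3e had 1.58, 2.05 and 2.88 CPM in MI+RDN, against 7.20, 4.69 and 5.08 in MI. Cd3g had 1.27, 2.08 and 3.4 CPM in MI+RDN, against 6.77, 3.92 and 4.37 in MI. In none of the 3 did the groups overlap, and in all 3 MI+RDN library 3 was the highest of its group and MI library 1 the highest of the other. Their log2 fold changes were -1.47 (SE 0.245) for Cd3d, -1.38 (SE 0.292) for Cd3e and -1.16 (SE 0.384) for Cd3g. Behind them lie few reads. The 3 chains together had 111, 156 and 192 counts in MI+RDN and 452, 295 and 355 in MI, whereas Cd4 alone had 296, 307 and 226 in MI+RDN and 819, 701 and 1276 in MI.

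**Figure D1:**
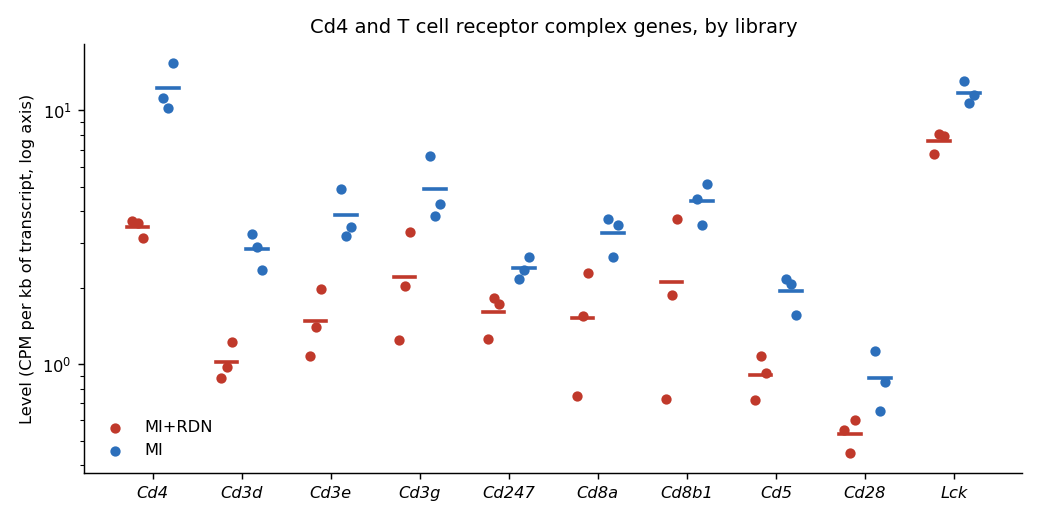
Level of each gene in CPM per kb of its longest protein-coding transcript, on a log axis; each point is a library and each bar a group mean (MI+RDN red, MI blue, n = 3 each). By group mean Cd4 and Lck lie above the CD3 chains, and the groups overlap in Cd8b1 alone among the 10 genes.

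Cd247, the zeta chain that T and NK cells share, had 3.73, 5.41 and 5.07 CPM in MI+RDN, against 6.39, 6.94 and 7.81 in MI (log2 fold change -0.57, SE 0.202). Lck had 14.7, 17.6 and 17.4 CPM in MI+RDN, against 28.3, 23.4 and 25 in MI (log2 fold change -0.63, SE 0.127). Both were lower in every MI+RDN library, with smaller differences than Cd4 or any CD3 chain. Cd8a, the alpha chain of the class I coreceptor, had 2.35, 4.86 and 7.14 CPM in MI+RDN, against 11.7, 8.30 and 11 in MI. Cd8b1, the beta chain, had 1.08, 2.78 and 5.54 CPM in MI+RDN, against 6.65, 5.23 and 7.62 in MI. Here the groups overlapped, since MI+RDN library 3 stood above MI library 2. Cd5, a brake on receptor signalling, had 2.16, 3.21 and 2.75 CPM in MI+RDN, against 6.48, 6.18 and 4.67 in MI, with no overlap. Cd28, the costimulatory receptor, had 2.39, 1.94 and 2.62 CPM in MI+RDN, against 4.90, 2.84 and 3.70 in MI, also with no overlap. The log2 fold changes of these 4 ran from -1.11 for Cd8a to -0.72 for Cd28.

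In all, 2 of the 10 genes (Cd4 and Cd3d) passed edgeR's quasi-likelihood test over all genes, both lower in MI+RDN. Of the 14849 genes tested, 1.01% passed, 0.714% lower and 0.296% higher. In 9 of the 10 genes every MI+RDN library was below every MI library, as in 13.7% of all tested genes, and 26.2% did not overlap in either direction. Since the genes were picked with this contrast known, nothing is read from these counts. Cd4 no longer passed without MI+RDN library 1 or without MI library 3, and Cd3d whichever library was left out, in fits with fewer samples. Markers of other cells moved as well. The summed level of 8 neutrophil markers was 22600 to 25500 CPM in MI+RDN, against 10600 to 16500 in MI, and the part of this in the lower lymphoid genes was not tested. Ratios of genes within a library, used next, are free of scaling.

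Because transcripts differ in length, levels were compared between genes per kb of the longest protein-coding transcript (3108 bases for Cd4, 1617 for Cd3d, 1462 for Cd3e, 1023 for Cd3g). On that scale Cd4 stood at 3.47 ± 0.297 CPM per kb in MI+RDN and 12.2 ± 2.73 in MI (SD, n = 3 each). Lck stood at 7.58 ± 0.753 CPM per kb in MI+RDN and 11.7 ± 1.15 in MI. In MI these 2 could not be told apart, with a gap of 0.239 times their pooled SD, and both stood above Cd3g, the next at 4.91 ± 1.5. In MI+RDN Lck was above Cd4 by 7.18 pooled SDs, and Cd4 was above Cd3g (2.20 ± 1.05) by 1.65. Below them in MI came Cd8b1, Cd3e, Cd8a, Cd3d, Cd247, Cd5 and Cd28. In MI+RDN the order was Cd8b1, Cd247, Cd8a, Cd3e, Cd3d, Cd5 and Cd28. Neighbours from Cd3g down to Cd3d in MI, and from Cd3g down to Cd3e in MI+RDN, lay within 1 pooled SD of each other.

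Per kb, Cd4 was above the mean of the 3 CD3 chains in all 6 libraries. The ratio was 3.43, 2.46 and 1.44 in MI+RDN libraries 1 to 3, against 2.27, 3.07 and 4.55 in MI libraries 1 to 3. The groups overlapped, and MI+RDN library 1 stood above MI libraries 1 and 2. The means were 2.44 ± 0.997 in MI+RDN and 3.30 ± 1.16 in MI (SD, n = 3 each). Per length the excess was smaller than the counts alone give, with a count ratio to the mean chain of 5.81 in MI+RDN and 7.78 in MI. With the longest transcript of any type it was 4.07 in MI+RDN and 5.43 in MI. No purified T cells were analysed here, so the ratio that CD4 T cells alone would give is not known here.

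In plain counts, 1 read of the 3 CD3 chains together went with 2.67 reads of Cd4 in MI+RDN library 1 (95% exact binomial interval 2.14 to 3.35). It went with 1.97 in library 2 (1.62 to 2.40) and 1.18 in library 3 (0.967 to 1.43). In MI libraries 1 to 3 the ratio was 1.81 (1.61 to 2.04), 2.38 (2.07 to 2.73) and 3.59 (3.19 to 4.05). These intervals cover counting error only. Within MI+RDN the intervals of libraries 1 and 3 were apart, and within MI those of libraries 1 and 3 were apart. The ratio thus varied within each group by more than counting error. The log2 ratio was lower in MI+RDN by a mean difference of -0.44, smaller than its SD of 0.549 within groups. It was -0.121 without MI+RDN library 3, -0.177 without MI library 3, -0.711 without MI+RDN library 1 and -0.672 without MI library 1. With Cd247 added to the chains it was -0.732. Against single genes that NK cells share, the groups did not overlap, with a log2 difference of -1.215 for Cd4 over Cd247 and -1.173 for Cd4 over Lck. Nor did they overlap for Cd4 over Cd28 (-1.106), which is not in the NK list. For Cd4 over Cd5 (-0.704), Cd8a (-0.564), Cd8b1 (-0.469) and each single CD3 chain the groups overlapped. Against all 26 other T cell genes in place of the CD3 chains the difference was -1.68, and -1.06 without Zbtb7b.

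**Figure D2:**
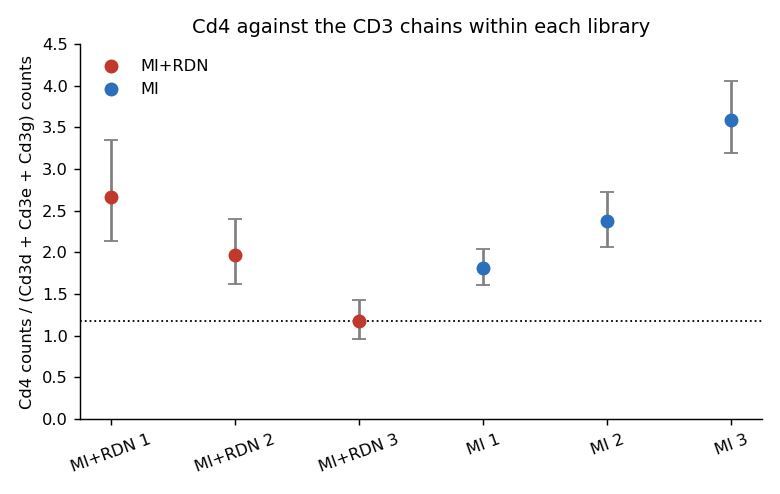
Cd4 counts over the summed counts of Cd3d, Cd3e and Cd3g in each library (MI+RDN red, MI blue), with 95% exact binomial intervals for counting error; the dotted line is the lowest ratio. MI+RDN library 3 is lowest at 1.18 and MI library 3 highest at 3.59, and the groups overlap.

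A lower limit on the part of Cd4 not tied to the CD3 chains follows by arithmetic, if the cells that carry CD3 bring Cd4 at the same ratio in every library. That ratio could then be no higher than the lowest one seen, 1.18 in MI+RDN library 3. On this assumption at least 55.9% of Cd4 counts in MI+RDN library 1 and 40.2% in MI+RDN library 2 lay beyond what the CD3 chains would bring. In MI it was at least 35.0%, 50.5% and 67.3% in libraries 1 to 3. With each ratio at the unfavourable end of its counting interval the limits were 32.9% and 11.3% in MI+RDN, and 11.1%, 30.7% and 55.1% in MI. The limit is 0 by construction in MI+RDN library 3. Without that library the mean limit over MI was 24.4%, against 50.9% with it. The assumption fails if the mix of CD4 and CD8 T cells differs between libraries, and the CD8 chains did move. Per kb, the ratio of Cd8b1 to the mean CD3 chain was 0.681, 1.27 and 1.72 in MI+RDN, against 0.908, 1.06 and 1.53 in MI. That of Cd8a was 0.703, 1.06 and 1.05 in MI+RDN, against 0.756, 0.800 and 1.05 in MI. The library that sets the limit thus had the highest Cd8b1 per CD3 chain, and the part of this in the limit was not tested.

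The pattern over the libraries was read from deviations of log2 CPM from the group means, which leave the contrast between groups aside. These correlations rest on 6 libraries with 4 degrees of freedom and are given without a p. The 3 CD3 chains moved together, with r from 0.825 to 0.991 between them, and Cd8a moved with Cd8b1 (r = 0.983). Lck followed Cd3e (r = 0.859) and Cd3g (r = 0.862), and Cd3d less closely (r = 0.594). The other genes did not all move as 1 block. Cd247 had r = 0.058 with Cd3d, 0.311 with Cd3e and 0.426 with Cd3g. Cd28 had r = -0.332 with Cd247 and -0.122 with Cd5, though 0.412, 0.653 and 0.556 with Cd3d, Cd3e and Cd3g. Cd4 did not share the pattern of the CD3 chains. Its r was -0.80 with Cd3d, -0.35 with Cd3e, -0.34 with Cd3g, -0.64 with Cd5, -0.13 with Cd8a and with Cd8b1, and -0.099 with Lck. It was 0.19 with Cd247 and 0.045 with Cd28. With any 1 library left out, the r of Cd4 was from -0.96 to -0.63 with Cd3d, from -0.84 to -0.12 with Cd3e and from -0.77 to -0.10 with Cd3g.

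MI library 3 shows the split. There Cd4 lay 0.347 above its group mean on the log2 scale and the mean of the CD3 chains 0.179 below. In MI library 1 the CD3 chains lay 0.348 above and Cd4 0.103 below. In MI+RDN library 3 the CD3 chains lay 0.459 above and the CD8 chains 0.896 above, with Cd4 0.145 below. In MI+RDN library 1 the CD3 chains lay 0.425 below and Cd4 0.084 above. Not every library showed it. In MI library 2 both lay below, with Cd4 at -0.245 and the CD3 chains at -0.170. In MI+RDN library 2 both lay near the mean, with Cd4 at 0.061 and the CD3 chains at -0.034.

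**Figure D3:**
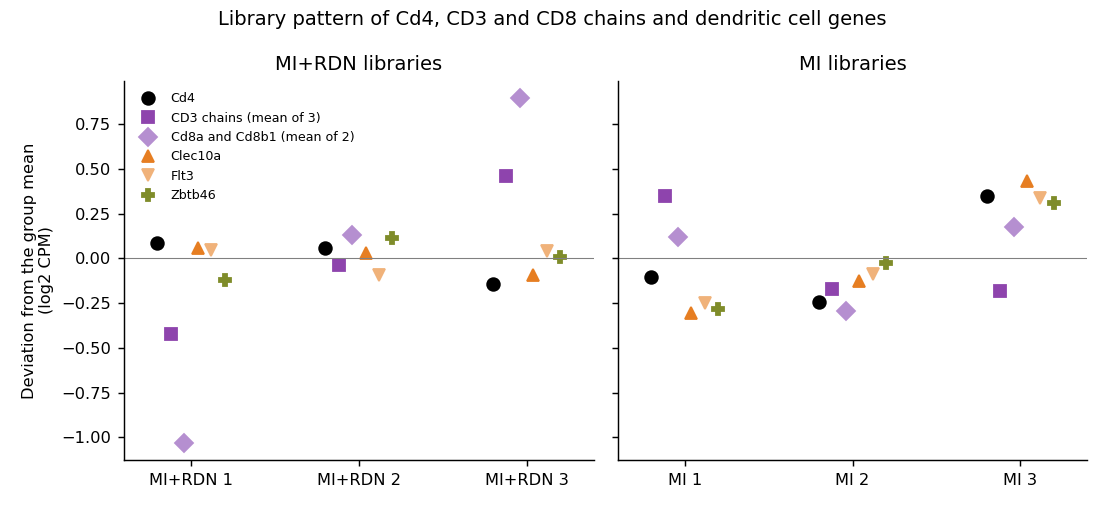
Deviation of log2 CPM from the group mean in each MI+RDN library (left) and each MI library (right), for Cd4, the mean of the 3 CD3 chains, the mean of Cd8a and Cd8b1, and the dendritic cell genes Clec10a, Flt3 and Zbtb46. In MI library 3 Cd4 (0.347) and Clec10a (0.435) are above the mean and the CD3 chains (-0.179) below, and in MI+RDN library 3 the CD3 chains (0.459) are above and Cd4 (-0.145) below. In MI library 2 Cd4 (-0.245) and the CD3 chains (-0.170) are both below.

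Some genes of CD11b+ DC2 lay closer to Cd4 in this pattern, in part through MI library 3. Clec10a, a C-type lectin of DC2 and macrophages, had r = 0.89 with Cd4, and from 0.22 to 0.99 with any 1 library left out. Flt3, the receptor that drives dendritic cell growth, had r = 0.75, and Zbtb46, which encodes a zinc finger factor that conventional dendritic cells share, had r = 0.65. Without MI library 3 these 2 turned to -0.60 and -0.44. These 3 stood at the top of the DC2 list, and 5 of its 15 genes had a negative r, among them Notch2 (-0.67), Ltbr (-0.69) and Relb (-0.34). Of the other markers of DC2 that carry CD4, Clec4a4 had 0.48 and Esam 0.51, and Dtx1 had 0.05. The median r over the 15 DC2 genes was 0.46, and -0.365 without MI library 3, beside 0.056 over all genes tested, and 9 of the 15 were above 0.4, as were 29.5% of all genes. Within groups the log2 ratio of Cd4 to Clec10a had an SD of 0.13, and 2.60% of 10244 genes kept a steadier ratio to Cd4. It was 0.163 for Flt3 (7.88% steadier) and 0.194 for Zbtb46 (16.4%). Irf8 of the DC1 list lay between Clec10a and these at 0.15 (5.25%). The SD was 0.445 for the ratio to Cd3d, 0.507 to Cd3e and 0.681 to Cd3g, and 87.2%, 91.5% and 96.5% of genes kept a steadier ratio than these. The 10244 genes had a mean of at least 5 CPM, save for members below it such as the CD3 chains. The CD3 chains were thus ranked against genes with more reads. The part of counting error in their SD was not tested. Not every DC2 gene was steady, with an SD of 0.483 for Cd209a and 0.37 for Dtx1. Lck (0.288) and Cd247 (0.292) lay near the middle of all genes, with 54.1% and 55.6% steadier.

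Among the other lists, that of DC1 had a median r of 0.34, the NK list 0.17, the B cell list 0.22 and the plasmacytoid list -0.075. The median was -0.082 over the 25 other T cell genes tested, where Cd2, an adhesion receptor of T and NK cells, stood apart at 0.85. The neutrophil list had -0.54, the monocyte and macrophage list 0.10 and the B-1 list 0.40. Single genes of other cells were as close to Cd4 as Clec10a or nearly so. Ccr9 of plasmacytoid dendritic cells had r = 0.96, Adgre1 of macrophages 0.965, Bhlhe41 of B-1 cells 0.90, Irf8 of DC1 0.835 and Clec9a of DC1 0.81, and 453 of 14849 genes were above Clec10a. Over the 6 libraries with the group difference left in, the genes most like Cd4 were Pld2, Vav2, Plxdc1, Dock10, Dennd6b, Chd9, Fpgt and Adsl (Pearson r from 0.993 to 0.999). At a mean of at least 5 CPM, 581 of 10239 genes, or 5.67%, had r of at least 0.9 on that measure. None of the 8 belongs to the lists of T cell or DC2 genes used here.

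**Figure D4:**
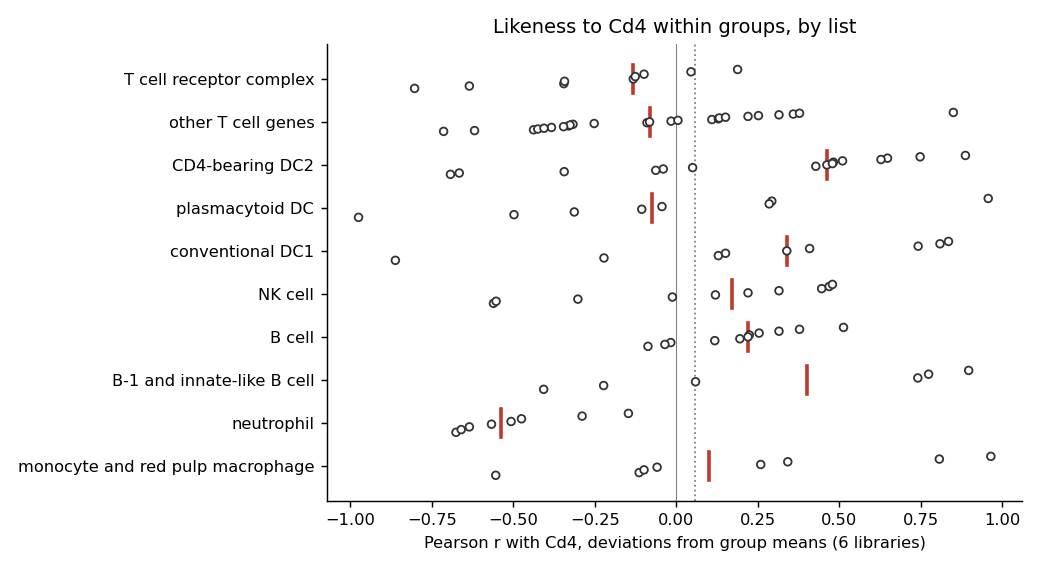
Pearson r with Cd4 of deviations from the group means over the 6 libraries, 1 point a gene, by list; red bars are list medians and the dotted line is the median of all genes tested (0.056). The DC2 genes have a median of 0.46 and the T cell receptor complex genes -0.13.

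Some DC2 genes also differed between the groups. Of the 15, 4 passed and all 4 fell in MI+RDN, beside 1.01% of all genes that passed and 0.714% that passed lower. The list median log2 fold change was -0.48, beside 0.0080 for all genes. Cd209a, a lectin with close paralogs whose reads may be shared, was 4.43-fold lower (edgeR, Benjamini-Hochberg adjusted p = 0.0401). Clec10a fell to 19.2, 18.8 and 17.3 CPM in MI+RDN, against 32.5, 36.8 and 54.3 in MI (adjusted p = 0.0439, edgeR). Dtx1, a Notch target, stood at 12.5, 17.7 and 21.4 CPM in MI+RDN, against 34.8, 34.1 and 41.5 in MI (adjusted p = 0.0495, edgeR). Zbtb46 was 2.22-fold lower (adjusted p = 0.0401, edgeR). With any 1 library left out, 0 of the 15 passed. Clec4a4, Esam and Notch2, which mark the DC2 that carry CD4, had log2 fold changes of -0.45, -0.69 and 0.39 and did not pass.

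Cd4 was thus not in step with every DC2 gene. Its count ratio to Clec10a was 0.593, 0.596 and 0.562 in MI+RDN, against 1.07, 0.860 and 0.878 in MI, with no overlap. Its ratio to Flt3 was 0.169, 0.183 and 0.144 in MI+RDN, against 0.358, 0.290 and 0.325 in MI. Its ratio to Clec4a4 was 2.07, 1.18 and 1.46 in MI+RDN, against 4.45, 3.34 and 3.89 in MI. Within each of these ratios the groups were apart, with Cd4 the more reduced gene. Its ratio to Cd209a overlapped, at 0.331, 0.666 and 0.358 in MI+RDN and 0.470, 0.286 and 0.294 in MI.

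The other T cell genes gave 0 passing members of 25 tested by edgeR, with 16 at an unadjusted p under 0.05, 6 passing by DESeq2, 1 by robust edgeR and 0 by limma-voom. Their log2 fold changes were negative in 23 of 25, with a median of -0.70. Over all 14849 genes tested, 2959 had an unadjusted p under 0.05 by edgeR. Of the same genes, 1165 passed by DESeq2, 277 by robust edgeR and 111 by limma-voom. Trac, the constant part of the receptor alpha chain, had 2.12, 3.47 and 7.22 CPM in MI+RDN, against 11.6, 8.39 and 9.57 in MI. Its MI+RDN library 3 was high, as for the CD3 and CD8 chains. Trbc1 and Trbc2, near-identical constant parts of the beta chain whose reads may be split, had log2 fold changes of -0.59 and -1.14. Zap70, the kinase that docks on phosphorylated CD3 chains, was at -0.18. Zbtb7b, the factor that commits T cells to the CD4 lineage, stood at 319, 276 and 278 CPM in MI+RDN, against 264, 259 and 231 in MI. It lay far above the CD3 chains in all libraries, and its difference missed the threshold (adjusted p = 0.296 by edgeR). Cd40lg, carried by activated CD4 T cells, had too few reads to test, at 2, 0 and 7 counts in MI+RDN and 8, 10 and 4 in MI. Foxp3, Lef1 and Icos of the same list had log2 fold changes of -1.86, -1.38 and -1.18. Their groups did not overlap, and they missed the threshold (adjusted p = 0.127, 0.116 and 0.194 by edgeR). Foxp3 had few reads, at 3, 14 and 13 counts in MI+RDN and 44, 22 and 39 in MI. For Ctla4 (-0.34) and Sh2d1a (-0.22) the groups overlapped.

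**Figure D5:**
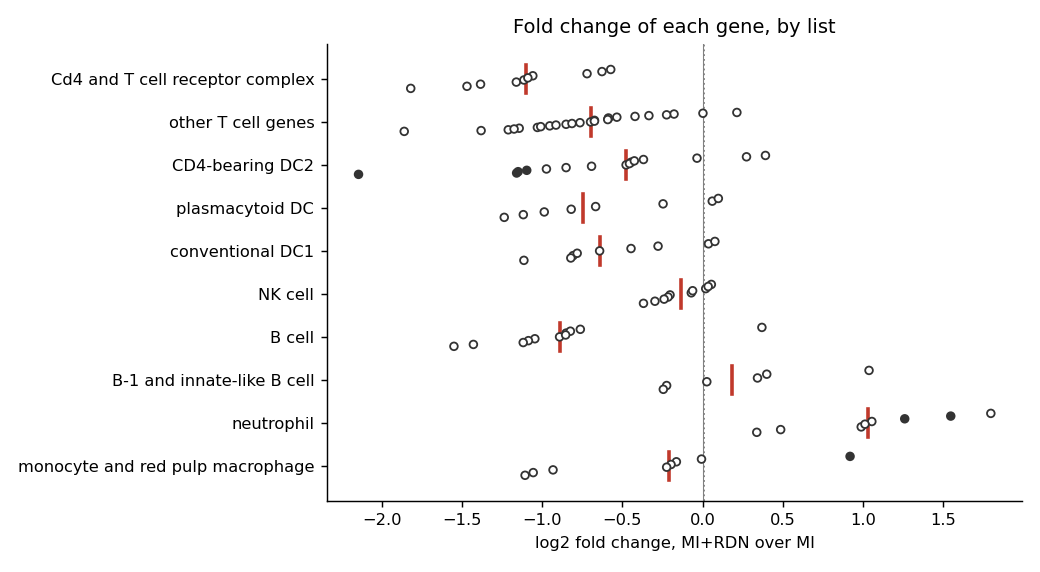
log2 fold change of MI+RDN over MI for each gene, by list; filled points passed edgeR's test at a Benjamini-Hochberg adjusted p of 0.05 (not marked for the 10 genes, which were chosen with this contrast known), red bars are list medians and the dotted line is the median of all genes tested (0.0080). In the top row Cd4 lies farthest to the left at -1.82, 4 of the 15 DC2 genes are filled and none of the 25 other T cell genes is.

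Lck and Cd247 were set against NK genes, since NK cells of the spleen carry CD11b and both genes. Ncr1, the NK receptor NKp46, had 15.7, 17.1 and 11.9 CPM in MI+RDN, against 16, 15 and 16 in MI. In the NK list 0 of 10 passed by edgeR, none at an unadjusted p under 0.05, and 0 by DESeq2 and limma-voom. The list median log2 fold change was -0.14. Of all 14849 genes, 2959 had an unadjusted p under 0.05 by edgeR and 1165 passed by DESeq2. Per kb, the ratio of Lck to the mean CD3 chain was 6.29, 5.50 and 3.66 in MI+RDN, against 2.63, 3.23 and 3.4 in MI. That of Cd247 was 1.18, 1.24 and 0.790 in MI+RDN, against 0.438, 0.709 and 0.784 in MI. Both were higher in every MI+RDN library, as was that of Ncr1 (9.82, 7.79 and 3.67 in MI+RDN, against 2.17, 3.02 and 3.17 in MI). The ratio of Cd28, which is not in the NK list, was also higher in every MI+RDN library. It was 0.514, 0.303 and 0.278 in MI+RDN, against 0.228, 0.197 and 0.253 in MI. The ratios of Cd5, Cd8a and Cd8b1 overlapped between the groups. The part of NK cells in the level of Lck and Cd247 was not tested.

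Cd8a was set against Cd8b1 in the same way. The count ratio of Cd8a to Cd8b1 was 2.18, 1.75 and 1.29 in MI+RDN, against 1.76, 1.59 and 1.45 in MI, and the groups overlapped. DC1 genes, whose cells carry Cd8a alone, had 0 of 9 passing by edgeR, with 7 at an unadjusted p under 0.05, 3 by DESeq2 and 0 by limma-voom. Their summed level was 603 to 664 CPM in MI+RDN, against 737 to 766 in MI. Most of the sum came from Wdfy4, Naaa and Irf8, with means of 253, 214 and 148 CPM in MI+RDN and 307, 203 and 201 in MI. The log2 fold change was negative in 7 of the 9 genes and positive in Naaa (0.076) and Itgae (0.036). Xcr1, the chemokine receptor that defines them, had 1, 1.24 and 2.02 CPM in MI+RDN, against 2.94, 2.53 and 3.74 in MI. B cell genes, a lineage whose B-1 cells carry Cd5, had 0 of 11 passing by edgeR, with 10 at an unadjusted p under 0.05, 10 passing by DESeq2, 2 by robust edgeR and 0 by limma-voom, and a median log2 fold change of -0.89. The 6 genes of B-1 and innate-like B cells, such as Zbtb32 and Bhlhe41, had a median of 0.18. Of these, 0 passed by edgeR, 2 had an unadjusted p under 0.05, 1 passed by DESeq2 and 0 by limma-voom. For scale, 2959 of all 14849 genes had an unadjusted p under 0.05 by edgeR, and 1165 passed by DESeq2.

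Some markers of the remaining cells that carry Cd4 were low, and others were not. Siglech, the lectin that defines mouse plasmacytoid dendritic cells, had 0.539, 0.256 and 0.473 CPM in MI+RDN, against 1.06, 1.04 and 0.897 in MI. Ccr9 of the same cells had 1.31, 1.13 and 1.12 CPM in MI+RDN, against 2.04, 1.76 and 3.25 in MI. Other genes of the plasmacytoid list stood higher. The mean CPM in MI+RDN and MI was 62.6 and 74.3 for Tcf4, 70.8 and 66.2 for Runx2 and 40.3 and 38.7 for Bst2. It was 28.3 and 61.3 for Spib and 18.4 and 29.2 for Ly6d. The part of other cells in these levels was not tested. Of 8 plasmacytoid genes tested 0 passed by edgeR, with 5 at an unadjusted p under 0.05, 1 by DESeq2 and 0 by limma-voom. Over all 14849 genes, 2959 had an unadjusted p under 0.05 by edgeR and 1165 passed by DESeq2. Klk1 and Cox6a2 of the same cells had too few reads to test; Klk1 was at 0 in MI library 2, and Cox6a2 in MI+RDN library 3 and MI libraries 1 and 2. Of the genes of lymphoid tissue inducer cells, which also carry Cd4, Ccr6, a chemokine receptor that B cells carry too, had 1.58, 3.98 and 4.34 CPM in MI+RDN, against 8.01, 6.13 and 8.33 in MI (adjusted p = 0.133 by edgeR). Tnfsf11 had 0, 3 and 0 counts in MI+RDN and 0, 0 and 2 in MI. Il23r had 6, 6 and 8 counts in MI+RDN and 5, 0 and 0 in MI. Il22 was at 0 in all libraries, which allows up to 0.11 to 0.129 CPM in MI+RDN and 0.112 to 0.135 in MI at 3 counts a library.

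Neutrophil genes ran against Cd4 between the groups. Of the 8 neutrophil genes 2 passed, both higher in MI+RDN, with a median log2 fold change of 1.03. Over all genes tested, 1.01% passed and 0.296% passed higher in MI+RDN. Ly6g, a surface marker of neutrophils, had 107, 171 and 103 CPM in MI+RDN, against 50.1, 49 and 31.5 in MI (adjusted p = 0.0425 by edgeR). Retnlg of the same cells was at a log2 fold change of 1.26 (adjusted p = 0.0316 by edgeR). With 1 library left out, 0 neutrophil genes passed except without MI+RDN library 2, where 2 did. DESeq2 called 5, beside 1165 of all genes, and edgeR without a filter 0, beside 21. Of the 8 monocyte and red pulp macrophage genes 1 passed, with a list median of -0.21. It was Ly6c2, a marker of inflammatory monocytes that bone marrow neutrophil precursors also carry, at 629, 776 and 689 CPM in MI+RDN, against 356, 414 and 338 in MI (adjusted p = 0.0364 by edgeR). With 1 library left out, 0 genes of this list passed except without MI+RDN library 3, where 1 did. DESeq2 called 3 and edgeR without a filter 0. Csf1r, the receptor that monocytes and macrophages need for survival, had 1310, 1200 and 1430 CPM in MI+RDN, against 1470, 1500 and 1540 in MI, and missed the threshold (adjusted p = 0.397 by edgeR). Spic, the factor of red pulp macrophages, had 12.2, 18.2 and 22.4 CPM in MI+RDN, against 28.5, 28.1 and 44.1 in MI (adjusted p = 0.108 by edgeR).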

How the data were processed

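The authors deposited 1 table of unnormalised counts per Ensembl gene, with 1 column for each of the 6 libraries. RNA was made into strand-specific libraries and read on an Illumina instrument, per the labels' protocols. FastQC 0.11.2, STAR and GRCm39 are named per the submitters' processing notes; for the counting tool, its strand setting and shared reads, the sources used here give nothing. Symbols and transcript lengths came by gene ID from GENCODE M21 (GRCm38), and 55154 IDs had a symbol.

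Genes were kept by filterByExpr (14849 of 55335), scaled with TMM and compared, MI+RDN over MI, with edgeR 4.0.16 (R 4.3.3), quasi-likelihood F test, Benjamini-Hochberg threshold 0.05, no covariates. The SE of a log2 fold change is its size divided by the root of F. Correlations were taken on log2 CPM (prior count 2). P-values set a difference between the groups against the spread between these libraries.

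The genes and lists were chosen with earlier results of these data known. Named are the 10 genes, the first 4 of each list (some are not reported here), its passing genes (up to 4), genes at 0, the 8 most like Cd4, the neighbours of Cd4 and Itgam; Cd2, Flt3 and others were added after their values were seen. Tbx21 is in both the DC2 and the NK list. The median length over all transcripts was first meant as the main length, but counts fragments (946 bases for Cd4), so the longest protein-coding transcript was used. DESeq2 1.42.0, limma 3.58.1, other scalings, filters, lengths and left-out libraries were alternatives. Plots came from matplotlib 3.10.9 under Python 3.11.15. Reads of Cd3e, Cd247 and Lck, which overlap other annotated genes, may be shared.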

Additional observations from a re-analysis of the deposited data

How the results depend on the processing

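Beside 150 genes and 2 of the 10 in the main analysis, the counts past the threshold were 475 and 5 without scaling factors, 21 and 1 without a filter, 1165 and 7 with DESeq2, and 87 and 1 with the replicate number as a block (replicate block). Genes numbered 290 at a mean of at least 5 CPM, 277 with robust edgeR, and 277 with antigen receptor segments, haemoglobin and mitochondrial genes removed. limma-voom called 1 of the 10 genes. Omitting the scaling shifted the median of all genes to -0.13. Same-numbered samples had correlations of 0.018, -0.065 and 0.064, beside -0.106 to 0.094 for samples with unlike numbers. With 3 libraries a group this shows no pairing but cannot exclude one. Under the block Cd3d did not pass. There the B cell list gave 7 passing genes, the plasmacytoid list 1 and the DC2 list 2, against 0, 0 and 4 in the main analysis. With 1 library left out, genes past the threshold numbered 0 to 67 and the 10 gave 0 to 1. The count was 0 without MI+RDN library 1 or MI library 3, where 2323 and 2084 genes had an unadjusted p below 0.05 by edgeR. The log2 difference of Cd4 over the CD3 chains was from -0.711 to -0.121, and the fold change of Cd4 (log2) from -1.936 to -1.625. Each of the 10 genes stayed negative in every alternative in which it was fitted. At a mean of at least 5 CPM, Cd4, Cd247, Cd8a and Lck alone were fitted.

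The ratio of Cd4 to the mean CD3 chain was 4.07 in MI+RDN and 5.43 in MI with the longest transcript of any type, 3.65 and 4.82 with the median length, and 5.81 and 7.78 in counts. The log2 difference of the ratio was -1.683 against the sum of other T cell genes, and -1.059 without Zbtb7b, an alternative chosen after seeing the data. The mean share beyond the lowest ratio over MI was 71.4% against that sum with Zbtb7b. Against the CD3 chains it was 50.9%, and 24.4% to 58.9% with 1 library left out. The causes of these shifts were not tested.

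Over the libraries, r of Cd4 with 1 left out was 0.881 to 0.959 with Cd3d, 0.834 to 0.925 with Cd3e, 0.681 to 0.88 with Cd3g and 0.969 to 0.997 with Clec10a. For deviations it was -0.955 to -0.633 with Cd3d (-0.693 without scaling), -0.839 to -0.118 with Cd3e, -0.766 to -0.103 with Cd3g and 0.215 to 0.992 with Clec10a. Signs changed with 1 library left out for Cd247 (-0.472 to 0.811), Cd28 (-0.834 to 0.399), Cd8a (-0.54 to 0.224), Cd8b1 (-0.677 to 0.313), Lck (-0.664 to 0.098), Flt3 (-0.598 to 0.862) and Zbtb46 (-0.441 to 0.786). They also changed for the list medians of DC2 (-0.365 to 0.545), other T cell (-0.382 to 0.162), plasmacytoid (-0.758 to 0.235), DC1 (-0.335 to 0.559), NK (-0.229 to 0.585), B cell (-0.705 to 0.903), neutrophil (-0.844 to 0.401) and monocyte and macrophage genes (-0.706 to 0.702). Without scaling r was 0.167 for Lck, 0.031 for other T cell genes and 0.122 for plasmacytoid genes, and, over the libraries, 0.176 for B-1 genes.

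The CD3 chains had 33 to 79 counts a gene in MI+RDN, which limits their ratios.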
